A study of Mus musculus with 6 samples.

Results

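Integrins and laminins were measured in type II alveolar epithelial cells from mice in which Stat3 had been deleted in the respiratory epithelium, and in the same cells from control mice. The members were all genes whose symbol names an integrin alpha or beta subunit (Itga, Itgb) or a numbered laminin alpha, beta or gamma chain (Lama, Lamb, Lamc), read from probe sets that name a single gene, and without the proteins that only bind an integrin tail (Itgb1bp and Itgb3bp). They came to 36 genes with 77 probe sets, out of 18193 genes and 45037 probe sets measured. Integrins made up 26 of these genes with 58 probe sets, and laminins 10 genes with 19 probe sets. Itgbl1, a beta-like protein that is not part of a receptor, matched the rule and was kept.

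Integrins are receptors built from an alpha and a beta subunit, and the pair decides which matrix or cell surface protein is bound. Laminins are heterotrimers of an alpha, a beta and a gamma chain, and they form the sheet of the basement membrane on which the alveolar epithelium rests. In lung epithelium, integrins that contain the alpha3 or alpha6 subunit bind laminin, and alphav with beta6 activates latent TGF-beta, while alphaM, alphaL and alphaX pair with beta2 on leukocytes.

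Stat3Δ/Δ mice carried SP-C-rtTA, (tetO)7CMV-Cre and Stat3flx/flx, so that doxycycline switched on Cre, through the SP-C promoter, in respiratory epithelial cells, and an exon of Stat3 was lost. By source name the control mice were SP-C-rtTA/(tetO)7CMV-Cre double transgenics, although their description field names the triple transgenic line, and the study's methods describe non-deleted littermates with one of the transgenes and Stat3flx/flx. Dams of both groups were fed doxycycline between embryonic day 0 and postnatal day 25, and the mice, matched for sex and age, were 8 weeks old. Cells were released with collagenase and enriched by differential plating, which leaves some macrophages, and each of the 3 pools in a group held cells of 3 mice and was hybridized to 1 MOE430 array. The study judged purity by a modified Papanicolaou stain. It reported no difference between the groups in the purity or the number of type II cells. No strain is named for the mice.

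The deposited values are linear signals from Affymetrix Microarray Suite 5.0. Signals were raised by 70.0, their 20th percentile, and brought to log2, and limma was run after quantile normalization, so that fold changes are Stat3Δ/Δ minus control on the log2(signal + 70.0) scale and understate the change of dim genes. All fold changes, medians of them and shared-number differences below are on this log2 scale. A gene was represented by its brightest probe set, which was under the median of all signals (336) for 11 of the 36 genes. A change was called at p of at most 0.05, a false discovery rate (FDR) of at most 10% over all features and a fold of at least 1.5. A second, weaker rule used the same p and fold without the FDR. Groups were called apart or overlapping by the deposited signals, before the pseudocount and normalization. The medians of these signals differed between arrays, from 283 in control pool 1 to 381 in Stat3Δ/Δ pool 1. Cells of other types in the pools also contribute RNA, and fewer cells of a type and less RNA per cell cannot be told apart.

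Surfactant and other type II markers (9 genes) had summed signals of 803024 to 1043701 on the Stat3Δ/Δ arrays and 944957 to 1035398 on the control arrays, which overlap. Their median log2 fold change was 0.01, with 5 above 0 and 4 below, the lowest at -0.73, and 1 was lower by the weaker rule. Of 4 probe sets for Stat3, 2 were lower on every Stat3Δ/Δ array than on every control array. Their log2 fold changes were -0.71 and -0.80, and the other 2, whose groups overlapped, had -0.046 and 0.60. None of the 4 was placed against the deleted exon here. The log2 ratio of 3' to 5' control probe sets falls with better preserved RNA. For Actb it averaged 0.39 ± 0.046 (SD, n = 3) in Stat3Δ/Δ pools and 0.64 ± 0.17 in control pools. For Gapdh it averaged -0.41 ± 0.099 in Stat3Δ/Δ pools and 0.020 ± 0.26 in control pools. Both ratios were lower in every Stat3Δ/Δ pool, with an exact two-sided permutation p = 0.1 for each, the smallest that 3 against 3 allow. Each sample title carries a leading number that the sources do not explain. Stat3Δ/Δ pools 1 and 2 and control pool 3 have the same one, and the difference within these 3 arrays is given below as the shared-number difference.

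Promoter sequences were read from RefSeq for the members that the results turn on and that have an entry. The window holds 250 bases before and 50 after the annotated start, on GRCm38.p6. Entries were used for 24 of the 36 genes, with 27 windows. A chromosome was left out for the members but kept in the share over all windows, so a gene without a window need not lack an entry. Each window was searched on both strands, and matches to different motifs were counted whether or not they overlapped. The palindrome bound by STAT factors, TTCNNNGAA, was in 2 of the 27 windows (7.41%) and in 8.3% of all 32851 windows. GAGGAA, a core bound by ETS factors such as PU.1, which is active in myeloid cells, was in 14 of the 27 windows (51.9%) and in 28.3% of all windows. GGGCGG, the GC box, was in 13 of 27 (48.1%) and in 35.7% of all. A match is a description of the letters and not a site. Itgam and Itgb1 are shown because they were the 2 genes that lay higher by the rule without FDR used below, Itga3 because more than 1 of its probe sets was lower, and Lamb2 because it holds the STAT palindrome, which was also found for Itga10. Capitals mark GAGGAA or its reverse complement in Itgam (chr7:128062390-128062689, plus strand), GGGCGG or its reverse complement in Itgb1 (chr8:128685404-128685703, plus strand) and in Itga3 (chr11:95076665-95076964, minus strand, one of its windows), and TTCNNNGAA in Lamb2 (chr9:108479612-108479911, plus strand). Only that motif is marked in each. On either strand Itgam also holds 1 match to GGGCGG, and Itgb1 and Lamb2 each hold 1 match to GAGGAA.
Itgam: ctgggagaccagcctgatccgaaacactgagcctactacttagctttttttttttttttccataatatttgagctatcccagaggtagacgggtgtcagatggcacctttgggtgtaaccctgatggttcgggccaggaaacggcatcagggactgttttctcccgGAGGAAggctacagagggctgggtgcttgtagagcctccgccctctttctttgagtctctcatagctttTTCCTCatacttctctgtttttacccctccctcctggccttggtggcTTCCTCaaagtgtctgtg
Itgb1: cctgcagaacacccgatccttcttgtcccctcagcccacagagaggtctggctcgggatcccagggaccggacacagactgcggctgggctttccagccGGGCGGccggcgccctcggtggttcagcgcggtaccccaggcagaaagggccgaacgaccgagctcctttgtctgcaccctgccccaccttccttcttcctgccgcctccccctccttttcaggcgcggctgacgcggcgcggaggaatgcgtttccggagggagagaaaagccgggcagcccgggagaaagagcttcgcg
Itga3: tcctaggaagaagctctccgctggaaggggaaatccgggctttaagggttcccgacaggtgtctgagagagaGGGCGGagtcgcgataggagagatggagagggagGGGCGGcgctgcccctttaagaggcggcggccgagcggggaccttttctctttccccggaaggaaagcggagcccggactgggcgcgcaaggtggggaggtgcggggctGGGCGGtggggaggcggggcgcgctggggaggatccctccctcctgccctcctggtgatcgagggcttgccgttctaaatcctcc
Lamb2: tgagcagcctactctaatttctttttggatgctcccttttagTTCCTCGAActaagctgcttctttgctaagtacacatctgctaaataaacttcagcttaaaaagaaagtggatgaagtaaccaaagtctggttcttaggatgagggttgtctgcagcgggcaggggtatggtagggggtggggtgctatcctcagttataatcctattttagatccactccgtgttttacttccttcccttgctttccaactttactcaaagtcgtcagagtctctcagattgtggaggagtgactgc

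No integrin or laminin was called with the FDR, in either direction. The lowest adjusted p from limma was 0.432 over probe sets and 0.448 over genes, and over all 18193 genes 0.011% were called higher and 0.0% lower, and over all probe sets 0.00222% and 0.0%. By the weaker rule, 6 of the 36 genes passed (16.7%), beside 7.69% of all genes. Itgam and Itgb1 were higher, beside 2.15% of all genes, and Itga3, Itgb3, Itgb4 and Lama4 were lower, beside 5.54%. The same 6 genes are those with an unadjusted p of at most 0.05, which 7.81% of all genes reached. Counted over probe sets, 15 of 77 passed, beside 8.36% of all probe sets (8.45% by p alone), with 9 higher, beside 4.14%, and 6 lower, beside 4.22%. Of these 15 probe sets, 13 belonged to integrins and 2, both lower, to laminins. The number of higher member probe sets changed with single arrays. It was 15 without control pool 3 and 5 without control pool 1 or without control pool 2, while the lower ones stayed between 5 and 6. Centring each array on its median in place of quantile normalization gave 5 higher and 8 lower, so that 38.5% of the probe sets that passed were higher, against 60.0%.

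**Figure D1:**
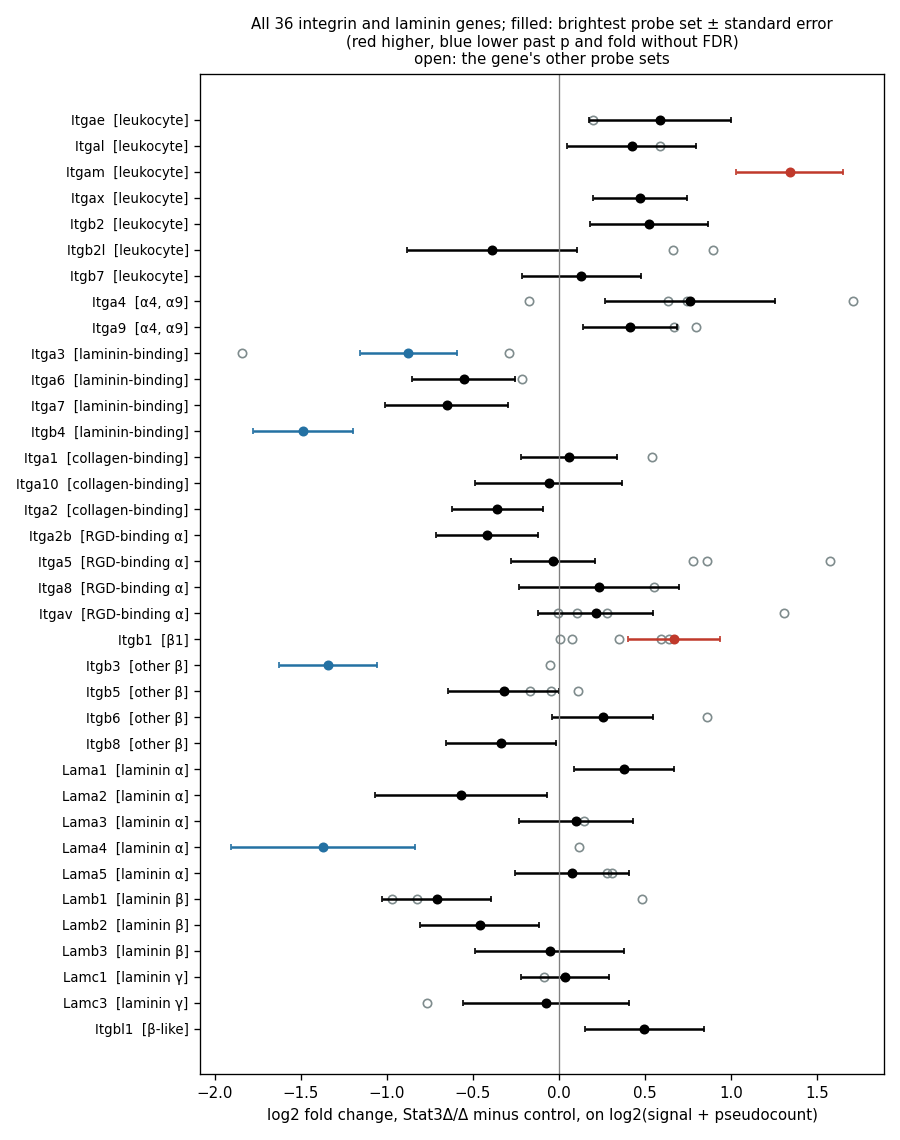
Log2 fold change (Stat3Δ/Δ minus control, horizontal axis) of the 36 integrin and laminin genes, grouped by role. Filled points are the brightest probe set with its standard error (n = 3 pools in each group), and open points are the other probe sets of the gene. The 4 genes listed as laminin-binding integrins lie below 0, 6 of the 7 leukocyte genes above it, and open points of Itga4, Itga5 and Itgav lie far to the right of the filled ones.

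The median log2 fold change was 0.09 over the 26 integrin genes, with 14 above 0, and -0.06 over the 10 laminin genes, with 4 above 0, beside -0.08 over all genes and 40.7% of all genes above 0. In the shared-number difference the medians were 0.12 and -0.37, beside -0.05 over all genes. With control pool 2 left out the integrin median turned to -0.027. In the deposited signals, groups did not overlap for 3 higher genes (Itgam, Itgb1 and Itgbl1), beside 5.08% of all genes, and 3 lower genes (Itga3, Itgb3 and Itgb4), beside 9.15%, or 14.2% in either direction. Of the probe sets, 12 were higher without overlap, all of integrins, beside 7.13% of all probe sets, and 4 were lower, beside 6.39%, or 13.5% in either direction. Fold changes lay above 0 for 38 of 58 integrin and 9 of 19 laminin probe sets, beside 48.3% of all. The 3 arrays outside the shared number (Stat3Δ/Δ pool 3 and control pools 1 and 2) give a difference that uses none of the same arrays. It rests on a single Stat3Δ/Δ array, whose leading number differs from that of these controls. Group and leading number cannot be told apart in it. Both differences had the same sign for 17 of the 36 genes (47.2%), beside 54.4% of all genes. For the other genes the sign turned between them. Over probe sets the sign was the same for 45 of 77 (58.4%), beside 54.0% of all probe sets.

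**Figure D2:**
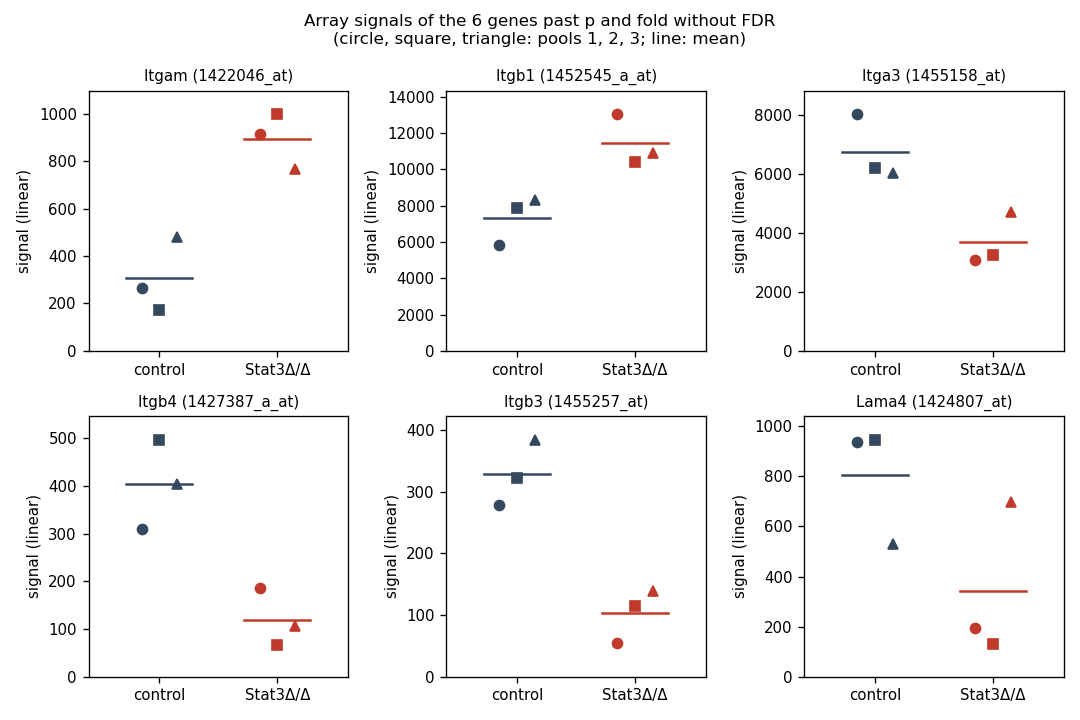
Linear array signal (vertical axis, from 0) of the brightest probe set of the 6 genes past p and fold without FDR, in control and Stat3Δ/Δ pools. Circles, squares and triangles are pools 1, 2 and 3, and lines are group means. Groups are apart for 5 genes and overlap for Lama4, whose Stat3Δ/Δ pool 3 lies above control pool 3.

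The list of laminin-binding integrin subunits held Itga3, Itga6, Itga7 and Itgb4. Itgb1, the shared beta subunit, was listed apart, with 0.67, and Itga1 and Itga2 were listed as collagen-binding. All 4 listed genes lay lower in Stat3Δ/Δ cells, as did 10795 of all 18193 genes. Their median was -0.76, beside -0.08 over all genes, and 2 of them, Itga3 and Itgb4, passed the weaker rule. The summed signal of the 4 genes was 9196 to 11565 on the Stat3Δ/Δ arrays and 15903 to 19963 on the control arrays, with no overlap. All 4 stayed below 0 in each of the alternatives that leave out an array or change the normalization, pseudocount, test or block, and with the filter on low signal the 3 genes that remain did.

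Itga3 encodes the alpha3 subunit, which with beta1 binds the laminins of the epithelial basement membrane. Its brightest probe set (1455158_at) had signals of 3065, 3236 and 4725 in Stat3Δ/Δ pools 1 to 3 and 8022, 6200.5 and 6030.0 in control pools 1 to 3. Every Stat3Δ/Δ array lay below every control array, and the gap between the groups was smallest at Stat3Δ/Δ pool 3. The log2 fold change was -0.88 (SE 0.28, limma's adjusted p = 0.534 over genes), and the shared-number difference was -0.95. A second probe set (1421997_s_at) gave 368, 242 and 806 in Stat3Δ/Δ cells and 1874, 1128 and 2006 in controls, again without overlap. Its log2 fold change was -1.85 (SE 0.43, limma's adjusted p = 0.456 over probe sets) and its shared-number difference -2.55. A further probe set (1460305_at) had 926, 809.5 and 1337 in Stat3Δ/Δ pools against 1233, 1240.1 and 1133 in control pools, groups that overlap, and a log2 fold change of -0.29. Both of the lower probe sets passed the weaker rule in 17 of 17 alternatives.

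Itgb4 encodes beta4, which pairs with alpha6 and anchors epithelial cells to laminin through hemidesmosomes. Its single probe set (1427387_a_at) read 185, 65.3 and 106 in Stat3Δ/Δ pools and 309.5, 496 and 404 in control pools. Groups were apart, and 2 of the 3 control arrays were above the median of all signals. Its log2 fold change was -1.49 (SE 0.29, limma's adjusted p = 0.448 over genes), with a shared-number difference of -1.35. It passed the weaker rule in 16 of 16 alternatives, but as a dim probe set its size ran from -2.05 without a pseudocount to -0.77 with a pseudocount at the median signal.

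Itga6, the partner of beta4 and beta1 in laminin receptors, had signals of 6110.1, 3810.5 and 3276 in Stat3Δ/Δ pools and 5518, 6474 and 6854 in control pools. Stat3Δ/Δ pools 2 and 3 lay below all controls and pool 1 within them. The log2 fold change of -0.55 (SE 0.30, limma's adjusted p = 0.716) did not pass either rule. Its other probe set (1422445_at) gave -0.21 (SE 0.24), with overlapping groups. Itga7, the laminin receptor of muscle, read 2205, 2085 and 3236 in Stat3Δ/Δ pools against 6114, 2732 and 3555 in control pools, with a log2 fold change of -0.65 (SE 0.36) and overlapping groups.

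Markers of other cells were read beside these genes. Those of ciliated cells (11 genes) had a median log2 fold change of -0.65 with 9 below 0 and 5 past the weaker rule, and summed signals of 35021 to 49698 in Stat3Δ/Δ and 45162 to 84363 in control pools. Markers of airway basal cells, which are rich in hemidesmosomes, had a median of -0.31 over 6 genes and summed signals of 975 to 1765 and 1409.5 to 2105, with 4 genes below 0, 2 above it and none past the weaker rule. Mesothelial markers lay below 0 for 7 of 7 genes, with a median of -0.91 and 4 past the weaker rule. The part of these cells in the laminin receptor values was not tested.

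Itgb1 encodes beta1, the subunit shared by most matrix receptors. The brightest of its 6 probe sets (1452545_a_at) had signals of 13030.4, 10409.8 and 10919 in Stat3Δ/Δ pools and 5850.5, 7878 and 8292 in control pools, so that every Stat3Δ/Δ array was above every control array. This amounted to a log2 fold change of 0.67 (SE 0.27, limma's adjusted p = 0.614 over genes), and the shared-number difference was 0.51. The next (1426918_at) read 6718, 5931 and 5599 against 3101, 3559 and 5159.6, also apart, with a log2 fold change of 0.64 (SE 0.27) and a shared-number difference of 0.29. All 6 probe sets had a fold change above 0, from 0.007 to 0.67, and for 1 of them (1438119_at) the 3 control arrays ranged from 358 to 2994. Support by the weaker rule was thin, since both probe sets that passed did so in 8 of 17 alternatives, and neither passed when an array other than control pool 3 was left out, with fold changes of 0.50 to 0.75 for the brightest. Beta1 therefore had values above 0 while its laminin-binding alpha partners had values below 0.

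Of the 4 alpha subunits that bind the RGD motif of fibronectin and related ligands, Itgav and Itga5 each had a dimmer probe set that passed the weaker rule while the brightest did not. Itgav, the alpha subunit of the TGF-beta-activating integrins, had brightest signals (1452784_at) of 12358, 13598 and 6972 in Stat3Δ/Δ pools and 10362, 7451 and 10922 in control pools, which overlap. They gave a log2 fold change of 0.21 (SE 0.34, limma's adjusted p = 0.906). Its probe set 1421198_at read 1196, 830.3 and 1027 against 293, 289 and 450.0 and was apart on every array. There the log2 fold change was 1.31 (SE 0.26, limma's adjusted p = 0.44 over probe sets), past the weaker rule in 17 of 17 alternatives. The remaining 3 Itgav probe sets had fold changes between -0.004 and 0.28.

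Itga5, the alpha subunit of the fibronectin receptor, showed a similar split. Its brightest probe set (1423267_s_at) gave 1544, 1867 and 1328 in Stat3Δ/Δ pools against 1579, 1638 and 1527 in control pools, with a log2 fold change of -0.035 (SE 0.25). Its probe set 1458996_at gave 255, 200.4 and 318 in Stat3Δ/Δ and 51.3, 29.6 and 13.8 in control pools, all under the median of all signals. With a log2 fold change of 1.57 (SE 0.29) this probe set had the lowest adjusted p among the members, 0.432 from limma over probe sets. Its size ran from 0.64 to 2.99 over 16 alternatives, the pseudocount giving both ends. The other two Itga5 probe sets gave 0.78 and 0.86, neither past the weaker rule.

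Itga4 and Itga9 encode alpha subunits that bind fibronectin, VCAM1 and related ligands, alpha4 mainly on leukocytes. Itga4 had brightest signals (1456498_at) of 2798, 3080.5 and 1214 in Stat3Δ/Δ pools and 558, 1334 and 2308 in controls, which overlap, and a log2 fold change of 0.76 (SE 0.50). Of its 4 other probe sets, 3 gave values between -0.17 and 0.74. The remaining one (1421194_at) read 471, 318 and 557 against 48.6, 132 and 52.8, and every Stat3Δ/Δ array was higher. That log2 fold change was 1.71 (SE 0.33, limma's adjusted p = 0.44 over probe sets), and it passed the weaker rule in 16 of 16 alternatives. Itga9 had 3 probe sets, all above 0. The brightest (1460285_at) gave 5538, 4958 and 3990.1 in Stat3Δ/Δ pools against 3281, 3042 and 4596 in control pools with a log2 fold change of 0.41 (SE 0.27), and 1450029_s_at gave 4567, 3547 and 5717 in Stat3Δ/Δ pools against 2593, 2141 and 2997 in control pools, groups that do not overlap, with a log2 fold change of 0.80 (SE 0.28) and a shared-number difference of 0.42. The dimmest (1420860_at) read 1060.2, 655.5 and 1032.7 in Stat3Δ/Δ pools against 506, 387 and 620 in control pools, which do not overlap. Its log2 fold change was 0.67, and it passed the weaker rule in only 3 of 17 alternatives.

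**Figure D3:**
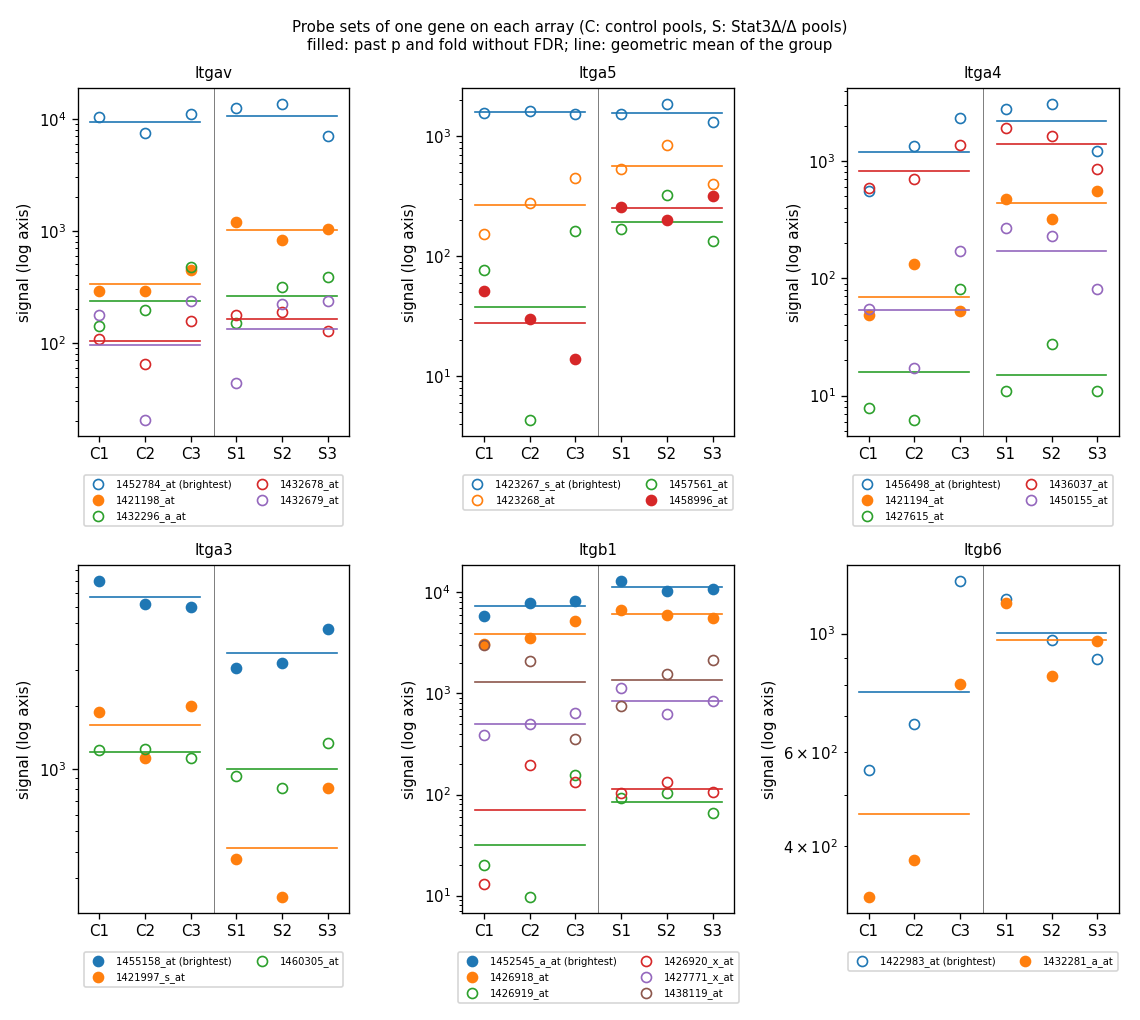
Signal (log axis) of every probe set of Itgav, Itga5, Itga4, Itga3, Itgb1 and Itgb6 on the 3 control arrays (C1 to C3) and the 3 Stat3Δ/Δ arrays (S1 to S3), with a line at the geometric mean of each group. Filled points mark probe sets past p and fold without FDR. For Itgav, Itga5, Itga4 and Itgb6 a probe set other than the brightest is filled and higher, while for Itga3 and Itgb1 the brightest is filled.

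Disagreement between probe sets was common. Of the 21 genes with several, 9 had all above 0, 4 all below and 8 lay on both sides. The 32 integrin probe sets that were not the brightest of their gene had a median of 0.55 with 24 above 0, and the 9 such laminin probe sets 0.12 with 5 above 0. Over all genes the 16752 probe sets that were not the brightest had a median of 0.03, and 975 of them were higher by the weaker rule and 569 lower, while the brightest gave 391 higher and 1008 lower. A lean of such probe sets towards higher values was therefore present over the whole array, where 8999 of the 16752 lay above 0. It was larger for the integrins, with 7 higher and 1 lower by the weaker rule among their 32. Averaging the probe sets of each gene moved the integrin median from 0.09 to 0.38 and gave 4 higher genes in place of 2. The share over all genes was not counted under this setting.

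The beta subunits that pair with alphav differed from each other. Itgb3, the beta subunit of the vitronectin receptor and of the platelet fibrinogen receptor, had signals (1455257_at) of 54.6, 114 and 139 in Stat3Δ/Δ pools and 278, 323 and 384 in control pools, so the groups were apart. Limma gave a log2 fold change of -1.34 (SE 0.28, limma's adjusted p = 0.448 over genes), the shared-number difference -1.53, and the range over 16 alternatives -1.95 to -0.66. All Stat3Δ/Δ signals and 2 of the control signals were under the median of all signals. Its other probe set (1421511_at) was dimmer still, with 55.7, 117 and 68.1 in Stat3Δ/Δ pools against 58.7, 19.0 and 198 in control pools, and gave -0.052. Itga2b, the platelet partner of beta3, had a log2 fold change of -0.42 and did not pass, and platelet markers (5 genes) had a median of 0.43.

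Itgb6, the epithelial beta subunit that activates latent TGF-beta with alphav, had brightest signals (1422983_at) of 1160.3, 973 and 895 in Stat3Δ/Δ pools and 555, 677 and 1255 in control pools. Control pool 3 was the highest array, and the log2 fold change of 0.25 (SE 0.30, limma's adjusted p = 0.864) turned to -0.21 in the shared-number difference. Its probe set 1432281_a_at gave 1143, 831 and 969.9 against 322, 377 and 806, apart on every array, with a log2 fold change of 0.86 (SE 0.31) and a shared-number difference of 0.28. Itgb5 and Itgb8 had -0.32 and -0.34, neither past a rule. The 3 collagen-binding alpha subunits (Itga1, Itga2 and Itga10) had fold changes between -0.36 and 0.06, and Itga8 had 0.23.

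Leukocyte integrins lay higher for 6 of 7 genes, with a median of 0.47, and Itgam alone passed the weaker rule. In the shared-number difference 4 of 7 were above 0, with a median of 0.24, and with Stat3Δ/Δ pool 2 or control pool 1 left out the median was 0.29 or 0.19. Itgam, the alpha subunit of the complement receptor Mac-1 of neutrophils and macrophages, had signals (1422046_at) of 917, 998 and 768 in Stat3Δ/Δ pools and 264, 172 and 483 in control pools. Every Stat3Δ/Δ array was above every control array, and control pool 3 was the closest. The mean log2 signal was 9.88 ± 0.15 (SD, n = 3) against 8.54 ± 0.50. The log2 fold change of 1.34 (SE 0.31, limma's adjusted p = 0.448 over genes) passed the weaker rule in 16 of 17 alternatives, the exception being the title number as a block, which gave 0.93.

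Itgb2, the beta subunit common to these receptors, read 13364, 20851 and 18309 in Stat3Δ/Δ pools and 7967, 16009.5 and 14207 in control pools, with a log2 fold change of 0.52 (SE 0.34, limma's adjusted p = 0.765). The groups overlap, since Stat3Δ/Δ pool 1 lay below 2 controls. Itgax, the alpha subunit CD11c, abundant on alveolar macrophages, read 5806, 9221 and 7089 in Stat3Δ/Δ pools against 4861, 6035 and 4913 in control pools, with a log2 fold change of 0.47 (SE 0.27). Stat3Δ/Δ pools 2 and 3 lay above all controls and pool 1 within them. Itgal, the alpha subunit of LFA-1, read 4244, 6878 and 6243 in Stat3Δ/Δ pools against 2451, 4918 and 5953 in control pools, with a log2 fold change of 0.42 (SE 0.37), which turned to -0.16 in the shared-number difference. Its other probe set (1425367_at) read 927, 1070.4 and 1279.6 in Stat3Δ/Δ pools against 417, 801 and 842 in control pools, apart but not past the weaker rule, with a log2 fold change of 0.59 (SE 0.29) and a shared-number difference of 0.25. Itgae, Itgb7 and Itgb2l had 0.59, 0.13 and -0.39, none past a rule. Itgbl1, outside the receptor groups, read 201, 191 and 218 in Stat3Δ/Δ pools against 39.0, 191 and 132 in control pools. Its log2 fold change was 0.50 (SE 0.34), short of both rules. The groups were apart by a narrow margin in the deposited signals and overlapped after normalization.

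Markers of the cells that carry these integrins were read beside them. Macrophage markers (13 genes) had a median of 0.49 with 11 above 0 and 3 past the weaker rule, and summed signals of 225868 to 284388 in Stat3Δ/Δ pools against 227568 to 231863 in control pools. Neutrophil markers (8 genes) had a median of 0.43, with 5 above 0 and 3 past the weaker rule (S100a8, S100a9 and Csf3r). Their other 3 genes lay below 0, the lowest at -0.87, and the median of the shared-number difference was 0.20. Neutrophil sums were 31302 to 36969.7 against 19743 to 24663, which do not overlap. T and NK cell markers (10 genes) had a median of -0.20 with sums of 10867 to 14755 against 4663 to 38988, control pool 2 being the highest, and B cell markers (8 genes) had 0.18. None of these markers was listed at 0. The part of these cells in the leukocyte integrin values was not tested.

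**Figure D4:**
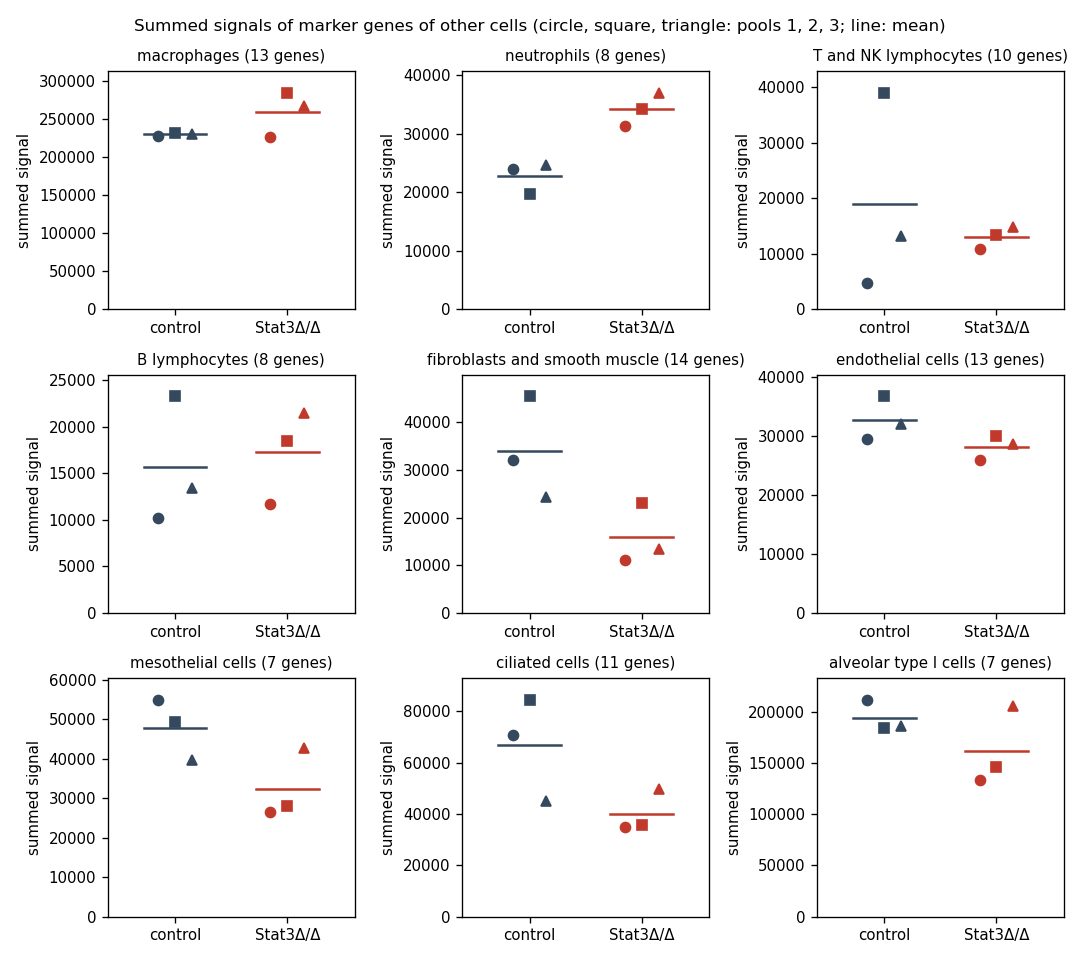
Summed linear signal (vertical axis, from 0) of the marker genes of other cell types in control and Stat3Δ/Δ pools. Circles, squares and triangles are pools 1, 2 and 3, and lines are means. Neutrophil sums lie apart and higher in Stat3Δ/Δ pools, fibroblast and smooth muscle sums lie apart and lower, and control pool 2 is the highest for T and NK lymphocytes.

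Laminin chains showed no common direction. The 5 alpha chains had a median of 0.08 with 3 above 0, the 3 beta chains lay below 0 with a median of -0.46, and the 2 gamma chains had 0.04 and -0.07. Centring the arrays on their medians turned Lama3, Lama5 and Lamc1 to below 0. Lama3, Lamb3, Lama5, Lamc1 and Lamb2 did not pass either rule. Lama3, the alpha chain of laminin-332, read 2172, 1678 and 1764 in Stat3Δ/Δ pools and 1221, 1394 and 2807 in control pools, with a log2 fold change of 0.096 (SE 0.33). Lamb3, its beta chain, read 5204, 7153 and 11514 in Stat3Δ/Δ pools against 9943, 4338 and 10947 in control pools, with a log2 fold change of -0.055 (SE 0.43). Both overlap widely, and both were lower in the shared-number difference, at -0.55 and -0.88, and higher in the other 3 arrays, at 0.40 and 0.80.

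Lama5, the major alpha chain of the mature alveolar basement membrane, read 2962, 2078 and 4182 in Stat3Δ/Δ pools and 3469.9, 2300.4 and 2674 in control pools, with a log2 fold change of 0.078 (SE 0.33). Lamc1, the gamma chain of most laminins, had 2631, 2054 and 2760.2 in Stat3Δ/Δ pools against 2417, 2110.0 and 2653 in control pools and a log2 fold change of 0.036 (SE 0.26). Lamb2 read 2097, 3128 and 4592 in Stat3Δ/Δ pools against 5234, 3498 and 4334 in control pools, with a log2 fold change of -0.46 (SE 0.34), and Stat3Δ/Δ pool 3 lay above 2 of the controls.

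By their brightest probe set Lama4 was the only laminin gene past the weaker rule, and Lamb1 passed it in another probe set. Lama4, the alpha chain of endothelial laminin, had signals (1424807_at) of 193, 130.0 and 698 in Stat3Δ/Δ pools and 938, 946 and 529.6 in control pools. Stat3Δ/Δ pools 1 and 2 were low, while pool 3 lay above control pool 3. The log2 fold change was -1.37 (SE 0.53, limma's adjusted p = 0.602 over genes), and it ran from -2.0 to -1.01 with 1 array left out and passed the weaker rule in 10 of 17 alternatives. Its other probe set (1424808_at) gave 0.12. Lamb1, a beta chain shared by several laminins, those that hold the Lama4 or the Lama5 chain among them, had brightest signals (1424114_s_at) of 717, 1132 and 870.1 in Stat3Δ/Δ pools against 919.7, 1619 and 1934 in control pools, with a log2 fold change of -0.71 (SE 0.32), and groups that overlap. Its probe set 1424113_at read 183, 383 and 291 in Stat3Δ/Δ pools against 337, 569 and 833 in control pools and passed the weaker rule, with a log2 fold change of -0.97 (SE 0.35) and a shared-number difference of -1.44, in 11 of 17 alternatives. The other two Lamb1 probe sets gave -0.83 and 0.48. Lama1, Lama2 and Lamc3 had 0.38, -0.57 and -0.07, with none past a rule.

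Markers of mesenchyme and vessels had medians below 0. Fibroblast and smooth muscle markers (14 genes) had a median of -0.53 with 11 below 0 and 5 past the weaker rule, and sums of 11056 to 23126 in Stat3Δ/Δ pools against 24241 to 45433 in control pools, which do not overlap. Endothelial markers (13 genes) had a median of -0.28 with 9 below 0, 1 past the weaker rule, and sums of 26010.3 to 29984 against 29564 to 36781. In the shared-number difference the fibroblast median was 0.09. The part of these cells in Lama4 and Lamb1 was not tested.

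**Figure D5:**
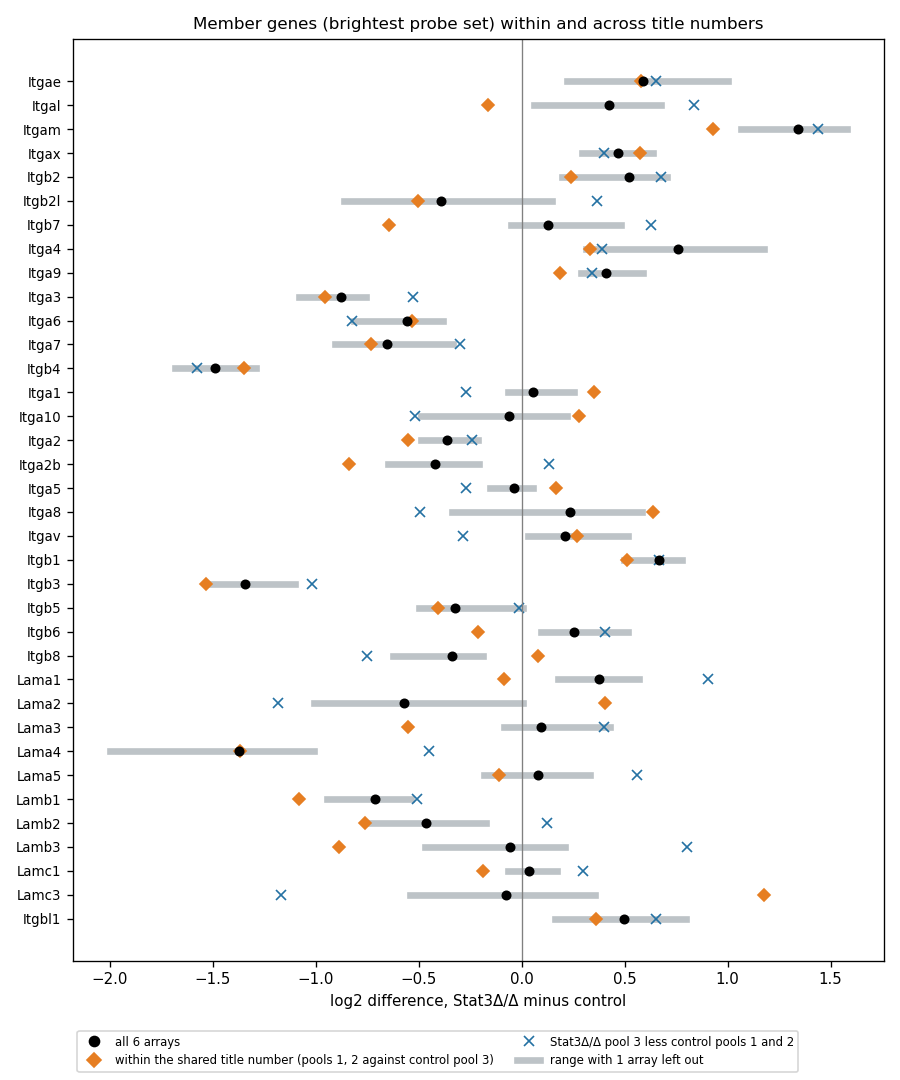
Log2 difference (Stat3Δ/Δ minus control, horizontal axis) of the 36 genes by their brightest probe set. Black circles use all 6 arrays, orange diamonds the 3 arrays that share a title number (Stat3Δ/Δ pools 1 and 2, control pool 3), blue crosses the other 3 arrays, and grey bars span the values with 1 array left out. Diamond and cross lie on the same side of 0 for 17 genes, and on opposite sides for Lama3, Lamb3 and Lamc3, among others. In the arrays of the crosses the title number differs between the groups.

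Genes that work with integrins and laminins were read from lists. Of 35 activators and adhesion complex proteins, such as talins and kindlins that link integrins to actin, 19 lay above 0 and 16 below, with a median of 0.02 and none past the weaker rule. Of 20 basement membrane partners, such as collagen IV and nidogens, 14 lay below 0, with a median of -0.20. Fbln1, a fibulin that is also on the fibroblast list, was the only one past the weaker rule, with 529.5, 762 and 613 in Stat3Δ/Δ pools, 1716, 2112 and 833 in control pools and -1.18 (SE 0.39, limma's adjusted p = 0.537). Of 9 laminin receptors that are not integrins, 6 lay below 0, with a median of -0.15 and none past the weaker rule.

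Integrin ligands held the largest fold changes of these lists. Of 23, 10 lay above 0, with a median of -0.15, and 3 were higher and 3 lower by the weaker rule. Fgg, the fibrinogen gamma chain, which holds the binding site for alphaM with beta2, read 1376, 986 and 3409.8 in Stat3Δ/Δ pools and 416, 309.6 and 90.9 in control pools, apart on every array, with a log2 fold change of 2.38 (SE 0.58, limma's adjusted p = 0.467). Fga, the fibrinogen alpha chain, read 1376, 650.2 and 2912 in Stat3Δ/Δ pools against 329, 257 and 109 in control pools, also apart, with a log2 fold change of 2.24 (SE 0.57). Control pool 3 was the lowest array for both and Stat3Δ/Δ pool 3 the highest. Fgb, the beta chain of the same protein, read 9.1 to 9.6 in Stat3Δ/Δ pools against 10.8 to 14.8 in control pools, all below the pseudocount, with a log2 fold change of -0.068 (SE 0.23). Ccn3, a matricellular protein, read 1756, 3645 and 2100 in Stat3Δ/Δ pools against 1119, 1389 and 1213 in control pools, also apart. Its log2 fold change was 0.88 (SE 0.32). Ltbp1, which holds latent TGF-beta in the matrix, read 133, 248 and 38.7 in Stat3Δ/Δ pools against 234, 459 and 299 in control pools. The Ltbp1 groups overlap, and its log2 fold change was -1.16 (SE 0.42).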

How the data were processed

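Type II cells of 3 Stat3Δ/Δ and 3 control pools were each hybridized to 1 array. The values are intensity signals that the authors made with MAS5 and deposited on a linear scale. The RMA values used by the study were not used here. Pools were grouped by source name. Of 45101 probe sets, 64 array controls were left out. The pseudocount was the 20th percentile over all arrays, and quantile-normalized log2 values were fitted with limma 3.58.1 in R 4.3.3, with Benjamini-Hochberg adjustment. Of the probe sets, 34945 name 1 gene, 932 several and 9160 none, by the platform annotation. The fit was tested on simulated data with known changes. P-values measure the spread between pools only, and precision is limited by having 3 arrays a group. The members and all gene and marker lists were chosen with earlier results of these data known. Values on every array are given for members past p and fold without the FDR, for epithelial subunits and for Itgal, Itgam, Itgax and Itgb2, and for up to 4 genes with the smallest p of each partner list. Alternatives changed the pseudocount, normalization, filter, variance model, test, array weights, blocks, probe set and arrays, 1 at a time. Python 3.11.15 with pandas 2.3.3, exact tests in scipy 1.17.1 and plots in matplotlib 3.10.9 were used. Genes without a probe set of their own are not reported here.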

Additional observations from a re-analysis of the deposited data

How the results depend on the processing

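No alternative gave a member past the FDR. Over the alternatives, 608 of the gene values kept their sign and 65 turned, 90 of the counts stayed within 1.5 times and 15 moved, and 32 of the medians stayed within their error and 6 moved. With 3 arrays a group, a log2 fold change of a member had a standard error of 0.25 to 0.53, and the cause of a changed value was not tested.

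The number of member genes higher by p and fold without FDR, 2, was 1 with arrays centred on their medians, without a pseudocount, with the replicate block and with the title number as a block, 4 with the mean of a gene's probe sets and with replicates 1 and 2 of each group only, and 1 to 3 with 1 array left out. The number of higher probe sets, 9, was 5 with centred arrays and with the title number as a block, 15 with replicates 1 and 2 only, and 5 to 15 with 1 array left out. Shares over all genes and all probe sets were not counted under these alternatives. The median of integrin genes, 0.09, was 0.23 with the filter on low signal, 0.38 with the mean of a gene's probe sets, 0.25 with replicates 1 and 2 only, and -0.027 to 0.16 with 1 array left out. The median of laminin genes, -0.06, was -0.37 with the title number as a block and within the shared number.

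The sources do not say whether the replicate numbers in the titles pair the samples, and no pairing was used in the main fit. Same-numbered arrays had correlations of their deviations of -0.084, -0.0088 and -0.24, and differently numbered ones -0.14 to 0.19. With 3 arrays a group these values cannot decide whether there was a pairing. The replicate block gave 6 higher and 5 lower probe sets, of which 11 were shared with the fit without it.

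The title number as a block, and equally the shared-number difference, turned Itga10 to 0.28, Itga5 to 0.17, Itgal to -0.16, Itgb6 to -0.21, Itgb7 to -0.64, Itgb8 to 0.082, Lama1 to -0.084, Lama2 to 0.40, Lama3 to -0.55, Lama5 to -0.11, Lamc1 to -0.19 and Lamc3 to 1.18. Centred arrays turned Lama3 to -0.0069, Lama5 to -0.052 and Lamc1 to -0.095. Array weights turned Itga5 to 0.041, Lama5 to -0.069, Lamb3 to 0.085 and Lamc1 to -0.020. The mean of a gene's probe sets turned Itga5 to 0.80, Itgb2l to 0.39 and Lamc1 to -0.025. No normalization turned Itga10 to 0.078 and Lamc3 to 0.095. Replicates 1 and 2 only turned Itga10 to 0.059, Itga5 to 0.00059, Lama5 to -0.22 and Lamc1 to -0.0024. With 1 array left out, signs turned for Itga1 (-0.066 to 0.25), Itga10 (-0.49 to 0.22), Itga5 (-0.15 to 0.055), Itga8 (-0.34 to 0.59), Itgb2l (-0.86 to 0.15), Itgb5 (-0.50 to 0.0056), Itgb7 (-0.052 to 0.48), Lama2 (-1.01 to 0.0057), Lama3 (-0.085 to 0.43), Lama5 (-0.18 to 0.33), Lamb3 (-0.47 to 0.21), Lamc1 (-0.065 to 0.17) and Lamc3 (-0.54 to 0.36).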
